A study of Mus musculus with 12 samples.

Results

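The nuclear-encoded subunits of the mitochondrial respiratory chain were measured in mouse embryonic calvariae, which form the roof of the skull. Members were the protein-coding genes whose symbols name a subunit of complex I (the Ndufa, Ndufb, Ndufc, Ndufs and Ndufv genes), complex II (Sdha to Sdhd), complex III (the Uqcr genes and Cyc1), complex IV (the Cox4 to Cox8 genes) or the ATP synthase, counted here as complex V (the Atp5 genes), with names of pseudogenes left out. This rule, chosen with earlier results of these data known, used symbols only and no measured value. It gave 85 of the 39179 gene identifiers counted, of which 21303 are protein-coding in GENCODE M21. There were 37 members of complex I, 4 of complex II, 9 of complex III, 18 of complex IV and 17 of complex V. The filter on low counts kept 83 of them. The other members, Cox7b2 and Cox8c, are testis isoforms of complex IV subunits. Cox7b2 held 12 counts over the 12 libraries, and Cox8c held 0, which allows up to 3 counts (counting error only).

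Complexes I and II pass electrons from NADH and succinate to ubiquinone, complex III passes them on to cytochrome c, and complex IV hands them to oxygen. The proton gradient that complexes I, III and IV build drives ATP synthesis by complex V. Each of these complexes except complex II is assembled from subunits of both genomes: mitochondrial DNA encodes a few hydrophobic subunits, and all the others, with all of complex II, are encoded in the nucleus. In bone, osteoblasts that make matrix and osteoclasts that resorb it both use mitochondrial ATP, and osteoclasts are rich in mitochondria.

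The study compared 4 groups of 3 libraries each, all from C57BL/6 embryos at embryonic day 17.5. They were Runx2+/- MS-275, Runx2+/- vehicle, WT MS-275 and WT vehicle. Runx2+/- embryos are heterozygous for Runx2, the transcription factor that osteoblast formation requires, and WT embryos carry both copies. MS-275, a drug also called entinostat that blocks class I histone deacetylases, was given to the pregnant dams by 2 intraperitoneal injections of 10 mg per kg, on days 14.5 and 16.5 post coitum, and parents had been mated at 8 weeks of age. The Runx2 allele, the vehicle and the litter of each embryo are not described in the sources used here. Nothing there states that replicates were separate animals, so p-values measure the spread between these samples, which may be technical. Libraries held 13307456 to 19399760 counts in genes.

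Replicate 3 of Runx2+/- MS-275 stood apart from its group before any member was considered. On the first principal component of all genes tested (72.5% of the variance) it scored −106, against 83.9 to 140.0 in the other 5 MS-275 libraries and −122 to 5.51 in the vehicle libraries. Among the vehicle libraries, replicates 3 of Runx2+/- vehicle (−14.5) and of WT vehicle (5.51) were apart from the others, at −92.7 or less. Levels are given in CPM, counts scaled to a common library total after TMM (trimmed mean of M values) normalization, which sets the bulk of the genes equal between libraries. Tissue markers differed along the same lines. The summed level of 10 epidermis markers was 74.7, 98.7 and 1819 CPM in Runx2+/- MS-275 and 1291 to 2858 CPM in Runx2+/- vehicle. In WT calvariae it was 41.9 to 91.9 CPM with MS-275 and 1392 to 4183 CPM with vehicle. Ivl and Dsg1a of that list were at 0 in at least 1 library. The summed level of 12 osteoblast markers, none of which was at 0 in any library, was 70362, 40350 and 3616 CPM in Runx2+/- MS-275 and 8429 to 22237 CPM in Runx2+/- vehicle. It was 65318 to 81601 CPM with MS-275 and 10736 to 15523 CPM with vehicle in WT. Lens markers summed to 6.94 to 16.6 CPM in the other 5 MS-275 libraries and in the vehicle replicates 3, and to 698 to 1049 CPM in the remaining 5 libraries, and 4 of the 8 (Cryba1, Crygs, Mip and Lim2) were at 0 in at least 1 library. The part of these tissues in the results below was not tested. In bulk RNA, fewer cells of one type and less RNA per cell cannot be told apart. Runx2 itself had 84.1, 93.5 and 34.1 CPM in Runx2+/- MS-275 and 65.3, 32.8 and 58.1 CPM in Runx2+/- vehicle, 111, 131 and 88.2 CPM in WT MS-275 and 45.5, 42.4 and 46.1 CPM in WT vehicle. Its level overlapped between the genotypes under each treatment, and the count of a gene cannot tell a deleted allele from an intact one, so genotypes are given as labelled.

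The members took a small, fairly constant share of all counts. They made up 0.832% to 1.04% of the counts in genes in Runx2+/- MS-275 and 0.708% to 0.909% in Runx2+/- vehicle. In WT the shares were 0.971% to 1.06% with MS-275 and 0.728% to 1.03% with vehicle. On the CPM scale the groups were farther apart. The summed level of the members was 17313, 11469 and 6248 CPM in Runx2+/- MS-275 and 5818, 5378 and 7462 CPM in Runx2+/- vehicle, 11920, 13337 and 17797 CPM in WT MS-275 and 5533, 6669 and 8683 CPM in WT vehicle. All WT MS-275 libraries lay above all WT vehicle libraries, and replicate 3 of Runx2+/- MS-275 lay among the vehicle libraries. The mean was 2.06 times as high in WT MS-275 as in WT vehicle (14351 ± 3067 against 6962 ± 1595 CPM, SD, n = 3 each, two-sided exact permutation p = 0.1, the smallest that 3 against 3 can give). It was 1.88 times as high in Runx2+/- MS-275 as in Runx2+/- vehicle (11677 ± 5535 against 6219 ± 1098 CPM, SD, n = 3 each, exact permutation p = 0.2). The share of counts in genes differed less, at 1.15 times with MS-275 in WT (exact permutation p = 0.3) and 1.18 times in Runx2+/- (exact permutation p = 0.2). With mitochondrially encoded counts left out of the total, the share was 1.32 times as high in WT and 1.36 times in Runx2+/-.

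**Figure D1:**
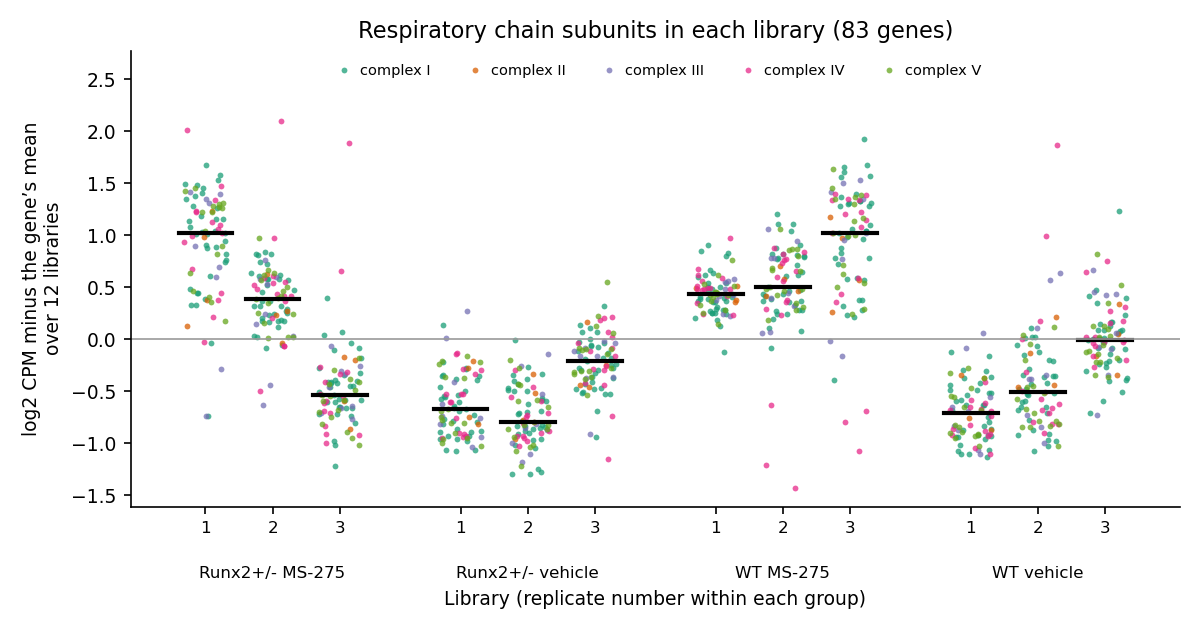
Each point is 1 of the 83 members tested, coloured by complex, and its height is the log2 CPM in that library minus the mean of the gene over the 12 libraries; bars are medians over members. The medians were 1.02, 0.39 and −0.53 in Runx2+/- MS-275, −0.67, −0.80 and −0.21 in Runx2+/- vehicle, 0.43, 0.50 and 1.02 in WT MS-275 and −0.71, −0.50 and 0.00 in WT vehicle.

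On the TMM scale most members lay on the same side of their own mean in most libraries, as the plot of deviations shows. In replicates 1 and 2 of Runx2+/- MS-275, 78 and 75 of the 83 members lay above their own mean over the 12 libraries, and 5 did in replicate 3. In Runx2+/- vehicle the numbers were 3, 0 and 16. In WT MS-275 the counts were 82, 79 and 77, and in WT vehicle they were 1, 14 and 41. Such numbers were not taken over all genes, so they do not set the members apart from other genes.

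In WT calvariae, MS-275 gave higher calls in each of the 5 complexes and no lower ones. Of the 83 members tested, 24 rose and 0 fell (28.9% higher, against 9.67% of all 17967 genes called higher and 9.33% called lower). The median log2 fold change of the members was 1.06, with quartiles of 0.51 and 1.45, against a median of −0.13 over all genes tested. It was above 0 in 78 of 83 members, and above 1 in 54.2% of members and 14.7% of all genes. In 67 members every WT MS-275 library exceeded every WT vehicle library (27.3% of all genes did so, and 27.5% lay the other way), and in 0 members the reverse held. Calls are from the quasi-likelihood F test of edgeR on counts, with Benjamini-Hochberg adjustment over all genes tested and a threshold of 0.05. They lay close to that threshold, with adjusted p-values of 0.0434 to 0.0499, while 58 members had an unadjusted p under 0.05. The count of 24 is therefore fragile. It was 49 by DESeq2 (18.5% of all genes called higher and 21.7% lower) and 0 by limma-voom (0% and 0.00557%). With single libraries left out it ran from 0 to 59, beside 0% to 22.2% of all genes called higher. It was 0 in 8 of the 12 cases. Without the 3 libraries that stand apart, 71 members were higher and 0 lower (28.5% of 18065 genes called higher and 31.8% called lower), with a median of 1.26. Without Runx2+/- MS-275 replicate 3 alone, 59 were higher and 0 lower (22.2% of 18216 genes called higher and 24.4% called lower).

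The size of the difference depended on the scale, which also moved the median of all genes. With library size alone in place of TMM, the median of all genes tested was −0.95 and that of the members 0.20, so the members lay 1.15 above the median gene on that scale and 1.18 above it on the TMM scale. On that scale 12 members were called higher and 3 lower, beside 2.93% of all genes called higher and 39.0% called lower. Directions given here are relative to the bulk of the genes. Genes named below whose own sign turned under library size alone were Ndufs1, Ndufs3, Ndufs7, Ndufv1, Sdha, Sdhc, Uqcrfs1, Cox4i1, Cox6a2, Atp5a1, Atp5b and Atp5g3 in WT.

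The complexes differed little in their medians. In WT MS-275 against WT vehicle, 13 of 37 members of complex I were higher (median 1.03), 1 of 4 of complex II (0.77), 3 of 9 of complex III (0.76), 3 of 16 tested of complex IV (1.19) and 4 of 17 of complex V (1.10). None was called lower in any of the 5. A difference between complexes was not tested.

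**Figure D2:**
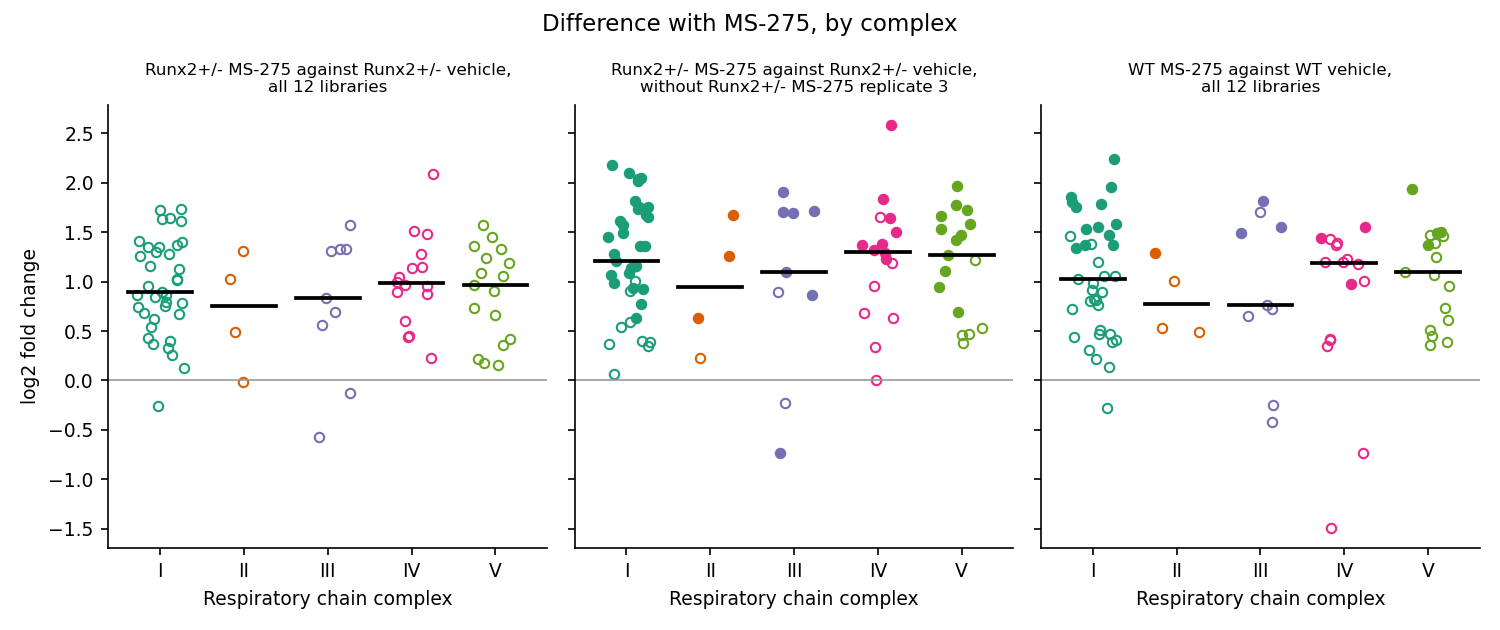
Log2 fold change of each member tested, by complex, in Runx2+/- MS-275 against Runx2+/- vehicle with all 12 libraries and without replicate 3 of Runx2+/- MS-275, and in WT MS-275 against WT vehicle; filled points passed the threshold and bars are medians. The medians of complexes I to V were 0.89, 0.76, 0.83, 0.98 and 0.96 in the left panel, 1.21, 0.95, 1.10, 1.30 and 1.27 in the middle panel and 1.03, 0.77, 0.76, 1.19 and 1.10 in the right panel.

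Complex I is the entry point for NADH, with 7 nuclear-encoded core subunits, among them those that carry the flavin and the iron-sulfur clusters, and many accessory subunits around them. The largest difference among all members in WT was that of Ndufa1 (chrX:37187588-37191163, minus strand, GRCm38), a small accessory subunit of the membrane arm. Ndufa1 had 150.8, 79.0 and 23.2 CPM in Runx2+/- MS-275 and 23.8, 19.3 and 32.9 CPM in Runx2+/- vehicle, 83.8, 109 and 178 CPM in WT MS-275 and 22.3, 23.0 and 33.0 CPM in WT vehicle. The 3 WT MS-275 libraries and replicates 1 and 2 of Runx2+/- MS-275 lay above every vehicle library, and replicate 3 of Runx2+/- MS-275 lay among them. The log2 fold change of Ndufa1 was 2.24 (SE 0.56, edgeR adjusted p = 0.0434) in WT and 1.73 (SE 0.55, adjusted p = 0.181) in Runx2+/-. Ndufb11, another accessory subunit of the membrane arm whose exons overlap those of Rbm10 on the other strand, followed with 1.96 (SE 0.50, adjusted p = 0.0434) in WT, where it averaged 282 ± 85.6 CPM with MS-275 and 72.8 ± 25.9 CPM with vehicle (SD, n = 3).

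Of the 7 core subunits of complex I, 2 were called higher (median 0.51), against 11 of 30 accessory subunits (median 1.06), a difference that was not tested. Ndufv2 and Ndufs8, which carry iron-sulfur clusters, rose by log2 fold changes of 1.48 (SE 0.39, adjusted p = 0.0434) and 1.34 (SE 0.39, adjusted p = 0.0455). Ndufv1, which binds NADH and the flavin, Ndufs1 and Ndufs3 had 0.44, 0.82 and 0.31 with adjusted p of 0.0575 to 0.199, and in each the WT groups did not overlap. Ndufs7 was closest to no difference, with 39.5, 30.1 and 33.5 CPM in WT MS-275 and 23.1, 30.7 and 39.7 CPM in WT vehicle (0.14, SE 0.21). Its groups overlapped, and its value turned to −0.03 without WT vehicle replicate 1 and to −0.05 with an offset for exonic length.

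Ndufa4, a subunit first assigned to complex I and since found with complex IV, was higher in WT at 202, 289.8 and 388 CPM with MS-275 and 88.9, 96.5 and 155 CPM with vehicle. Its log2 fold change was 1.37 (SE 0.43, adjusted p = 0.0499). Its paralogue Ndufa4l2, which is induced by hypoxia in many cells, had 41.3, 30.6 and 20.4 CPM in WT MS-275 and 24.6, 24.2 and 63.2 CPM in WT vehicle, and the groups overlapped (−0.28, SE 0.52, adjusted p = 0.676). The value of Ndufa4l2 was 0.34 without WT vehicle replicate 3, the library with 63.2 CPM. Reads of its exons that overlap Shmt2 on the other strand cannot be assigned with certainty.

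Complex II, succinate dehydrogenase, is also an enzyme of the tricarboxylic acid cycle. Sdhd, a membrane anchor, rose to 193, 224 and 309.5 CPM in WT MS-275, against 74.98, 99.6 and 123 CPM in WT vehicle (log2 fold change 1.29, SE 0.40, adjusted p = 0.0486). The iron-sulfur subunit Sdhb had 1.01 (SE 0.33, adjusted p = 0.0525), the other anchor Sdhc 0.53 (SE 0.28, adjusted p = 0.148) and the flavoprotein Sdha 0.49 (SE 0.21, adjusted p = 0.0964). For all 4 the WT MS-275 libraries lay above the WT vehicle libraries. Sdhc was the one that differed between genotypes in sign: its value was −0.02 (SE 0.28) in Runx2+/- with all libraries and 0.22 without replicate 3 of Runx2+/- MS-275.

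The core proteins 1 and 2 of complex III, which carry no redox centre, encoded by Uqcrc1 (chr9:108936633-108949623, plus strand) and Uqcrc2 (chr7:120635176-120659524, plus strand), sit together on the matrix side of the enzyme; Uqcrc2 was singled out after its values were seen. Uqcrc2 had 564, 374.5 and 179 CPM in Runx2+/- MS-275 and 131, 126 and 118 CPM in Runx2+/- vehicle, 309.7, 379.9 and 562.5 CPM in WT MS-275 and 124, 170.2 and 133 CPM in WT vehicle. Every MS-275 library, replicate 3 of Runx2+/- MS-275 included, lay above every vehicle library. The log2 fold change of Uqcrc2 was 1.55 (SE 0.38, adjusted p = 0.0434) in WT and 1.58 (SE 0.38, adjusted p = 0.181) in Runx2+/-.

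Uqcrc1 lay the other way. It had 47.4, 51.1 and 66.3 CPM in Runx2+/- MS-275 and 95.6, 71.7 and 78.5 CPM in Runx2+/- vehicle, 93.6, 83.1 and 70.7 CPM in WT MS-275 and 82.3, 123 and 125.5 CPM in WT vehicle. All Runx2+/- MS-275 libraries lay below all Runx2+/- vehicle libraries, while the WT groups overlapped. Its log2 fold change was −0.58 (SE 0.22, adjusted p = 0.193) in Runx2+/- and −0.42 (SE 0.22, adjusted p = 0.144) in WT. Cyc1, the cytochrome c1 subunit, had −0.24 (SE 0.19, adjusted p = 0.313) in WT, and its sign turned to 0.28 with an offset for GC content. The Rieske iron-sulfur protein Uqcrfs1 had 0.65 (SE 0.31, adjusted p = 0.118). The small subunit Uqcrb, whose exons overlap those of Gm10767, rose by 1.82 (SE 0.48, adjusted p = 0.0434), and the hinge protein Uqcrh had 1.70 (SE 0.54, adjusted p = 0.0501).

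Complex IV, cytochrome c oxidase, has several subunits with tissue isoforms. Among the isoforms that most tissues use, Cox6b1 was 261, 273 and 473 CPM in WT MS-275 and 97.4, 120.4 and 154 CPM in WT vehicle (1.44, SE 0.43, adjusted p = 0.0471), and Cox7c rose by 1.55 (SE 0.47, adjusted p = 0.0471). Cox6a1, Cox7a2, Cox7b and Cox8a had 1.18 to 1.43 with adjusted p of 0.0528 to 0.0595, and for each the WT groups did not overlap. Cox7a2l had 1.20 (SE 0.44, adjusted p = 0.0654). Cox4i1 had 279.9, 259 and 271 CPM in WT MS-275 and 131, 161 and 313 CPM in WT vehicle. WT vehicle replicate 3 was the highest library, and the groups overlapped (0.42, SE 0.33, adjusted p = 0.319).

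Less abundant isoforms of complex IV were present at low levels. Cox6b2, an isoform known from testis, rose to 13.1, 10.6 and 13.0 CPM in WT MS-275, against 5.74, 5.42 and 7.52 CPM in WT vehicle (0.97, SE 0.29, adjusted p = 0.0471). Cox4i2, an isoform known from lung and responsive to oxygen, had 8.72, 9.25 and 12.6 CPM in WT MS-275 and 3.19, 3.35 and 6.72 CPM in WT vehicle (1.20, SE 0.44, adjusted p = 0.0659). The WT groups did not overlap for either gene.

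The isoforms of striated muscle and brown fat, Cox6a2, Cox7a1 and Cox8b, had other patterns over the libraries. Cox6a2 had 70.8, 75.1 and 9.14 CPM in Runx2+/- MS-275 and 15.9, 12.7 and 7.79 CPM in Runx2+/- vehicle, 34.4, 11.2 and 10.8 CPM in WT MS-275 and 8.38, 17.5 and 16.7 CPM in WT vehicle. The highest levels stood in replicates 1 and 2 of Runx2+/- MS-275 and in replicate 1 of WT MS-275, without which the WT value of 0.41 (SE 0.70) turned to −0.37. The 12 skeletal muscle markers, none of them at 0 in any library, summed to 3652, 4032 and 3529 CPM in Runx2+/- MS-275 and 4932, 3559 and 1322 CPM in Runx2+/- vehicle, 2205, 644 and 319 CPM in WT MS-275 and 2883, 5524 and 2807 CPM in WT vehicle. Of the 12, 3 (Tnnt3, Tnni2 and Ckm) were highest in replicate 1 or 2 of Runx2+/- MS-275, where Cox6a2 was highest, and the other 9 were highest in a vehicle library. Tnnt3, a fast muscle troponin, had 928 and 870 CPM in those replicates, while the muscle actin Acta1 had 231 and 375 CPM there and 1200 CPM in WT vehicle replicate 2. The 8 cardiac and slow muscle markers summed to 529, 568 and 289 CPM in Runx2+/- MS-275 and 154 to 348 CPM in Runx2+/- vehicle. In WT they summed to 55.9 to 250 CPM with MS-275 and 244 to 343 CPM with vehicle. Of these markers, Tnni1, Tnnt1, Tnnc1 and Myl2 were highest in replicate 1 or 2 of Runx2+/- MS-275. Myh6, Myh7, Myl3 and Nppa, which was at 0 in some libraries, were highest in a vehicle library. The part of muscle tissue in these values was not tested. Itgad, whose exons overlap Cox6a2 on the other strand, was at 0.239 CPM or less in every library.

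Cox7a1 was highest in 2 libraries of different groups. It had 2.14, 1.52 and 8.36 CPM in Runx2+/- MS-275 and 1.71, 1.21 and 2.55 CPM in Runx2+/- vehicle, 2.60, 0.737 and 1.21 CPM in WT MS-275 and 0.957, 8.25 and 3.76 CPM in WT vehicle. Ucp1, the uncoupling protein that defines brown fat, was at 23.4 CPM in Runx2+/- MS-275 replicate 3 and 52.6 CPM in WT vehicle replicate 2, the same libraries, and at 1.51 CPM or less in the other 10. Cidea, another brown fat gene, was at 27.9 and 30.6 CPM in those libraries and at 4.80 CPM or less elsewhere. Of the other adipocyte markers, Pparg, Fabp4, Adipoq, Plin1, Lpl and Cfd were highest in 1 of those 2 libraries. Cebpa was highest in WT vehicle replicate 3 (28.1 CPM) and Dgat2 in WT vehicle replicate 1 (37.8 CPM). The list of 10 adipocyte markers summed to 267 to 478 CPM in Runx2+/- MS-275 and 113 to 155 CPM in Runx2+/- vehicle. The sums in WT were 212 to 268 CPM with MS-275 and 122 to 462 CPM with vehicle. Adipoq, among its defining genes, was at 0 in replicates 1 and 2 of both MS-275 groups and at 31.7 CPM in Runx2+/- MS-275 replicate 3. It was at 20.5 and 16.9 CPM in WT vehicle replicates 2 and 3, and the part of fat tissue was not tested. The log2 fold change of Cox7a1 was −1.49 (SE 0.85, adjusted p = 0.178) in WT and 1.15 (SE 0.83, adjusted p = 0.445) in Runx2+/-. The Runx2+/- value became 0.00 without replicate 3 of Runx2+/- MS-275.

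Cox8b had 10.7, 8.94 and 7.14 CPM in Runx2+/- MS-275 and 4.07, 2.63 and 2.65 CPM in Runx2+/- vehicle, 6.32, 1.88 and 2.07 CPM in WT MS-275 and 2.75, 9.05 and 5.44 CPM in WT vehicle. The Runx2+/- groups did not overlap, with MS-275 higher (1.51, SE 0.54, adjusted p = 0.187), and the WT groups overlapped (−0.74, SE 0.54, adjusted p = 0.282). None of the 3 isoforms passed the threshold in either drug comparison with all libraries.

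**Figure D3:**
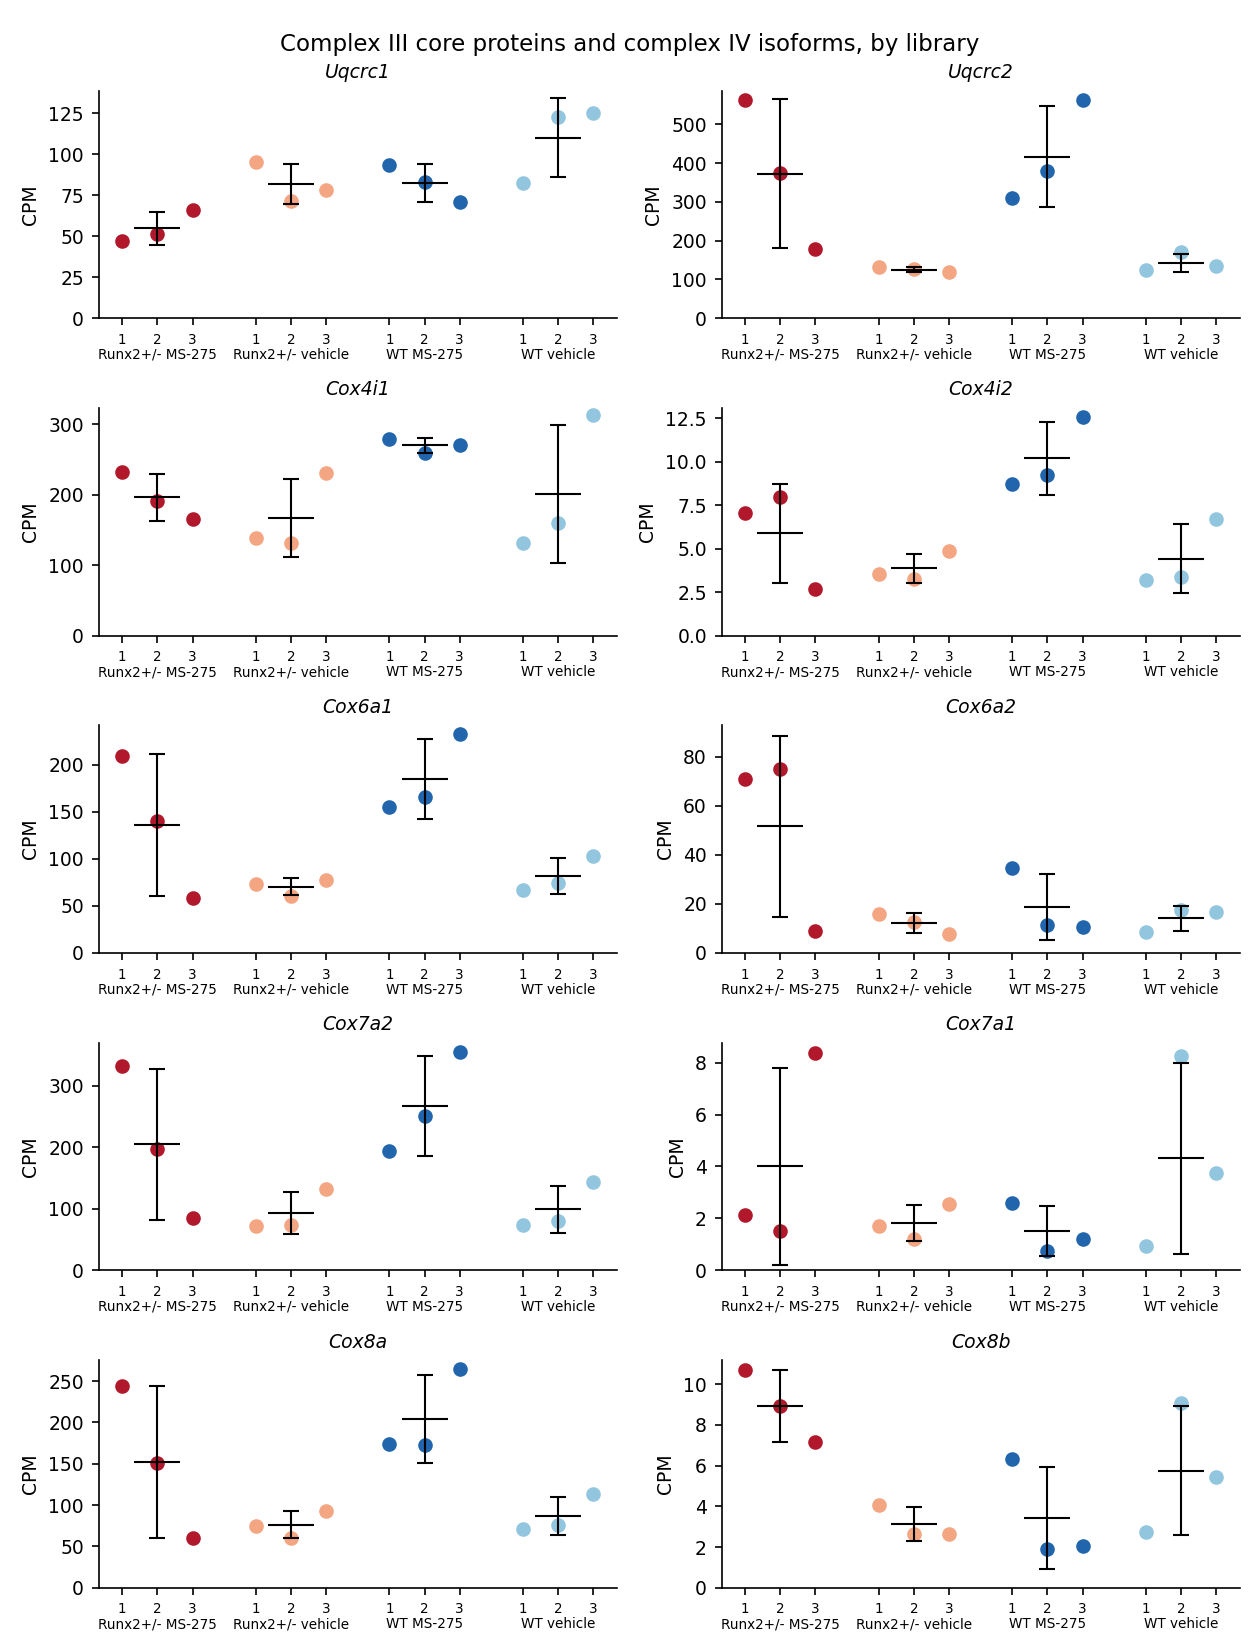
Level in CPM of the complex III core proteins and of 4 pairs of complex IV isoforms in each library, with the tissue isoform (right) beside the broadly used one (left); horizontal bars and whiskers are mean ± SD over 3 libraries. Uqcrc1 is lower and Uqcrc2 higher in every Runx2+/- MS-275 library than in every Runx2+/- vehicle library, and Cox7a1 peaks in Runx2+/- MS-275 replicate 3 (8.36 CPM) and WT vehicle replicate 2 (8.25 CPM).

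Complex V makes ATP with a catalytic head of alpha, beta and gamma subunits on a ring of c subunits. The c subunit is encoded by 3 genes whose products differ in the sequence that is removed on import. Atp5g2, one of them, had 106, 89.4 and 27.9 CPM in Runx2+/- MS-275 and 22.2, 21.5 and 31.4 CPM in Runx2+/- vehicle, 77.1, 94.6 and 141 CPM in WT MS-275 and 23.5, 22.2 and 35.9 CPM in WT vehicle. The WT groups were far apart, and the log2 fold change was 1.94 (SE 0.45, adjusted p = 0.0434) in WT and 1.57 (SE 0.44, adjusted p = 0.181) in Runx2+/-. The other 2 genes of the c subunit had smaller values in WT, with 0.96 (SE 0.39, adjusted p = 0.0842) for Atp5g1 and 0.36 (SE 0.28, adjusted p = 0.308) for Atp5g3. These genes have processed copies in the genome, so their counts are uncertain as far as reads were shared.

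The gamma subunit gene Atp5c1 rose to 399.7, 464 and 660.4 CPM in WT MS-275, against 158.5, 179.8 and 253 CPM in WT vehicle (1.37, SE 0.41, adjusted p = 0.0463). Atp5b, the catalytic beta subunit, had 901, 871 and 878 CPM in WT MS-275 and 591, 777 and 657 CPM in WT vehicle (0.39, SE 0.24, adjusted p = 0.212), and Atp5a1, the alpha subunit, 948 ± 22.9 and 622 ± 63.9 CPM (SD, n = 3; 0.61, SE 0.30, adjusted p = 0.127). In both genes the WT groups did not overlap. Atp5j, the coupling factor 6 gene, rose by 1.504 (SE 0.46, adjusted p = 0.0478), and its exons overlap those of Gabpa on the other strand.

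Across the complexes, the 16 catalytic core subunits of complexes I, II, III and V had a median log2 fold change of 0.57 in WT with 4 called higher, against 1.18 in the other 67 members tested with 20 called higher. In Runx2+/- the medians were 0.55 for the core subunits and 1.00 for the others. A test of this difference was not made.

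Per kilobase of mRNA, the order of the members differed between treatments. In WT MS-275 the highest were Uqcrh (1117 CPM per kilobase), Cox6b1 (691), Ndufa4 (638) and Atp5h (510.4), and in WT vehicle they were Atp5b (352 CPM per kilobase), Uqcrh (344), Cox4i1 (267), Cox6b1 (255) and Ndufa4 (247). Uqcrh had 373, 488 and 729.9 CPM in WT MS-275 and 121, 127 and 241 CPM in WT vehicle. In Runx2+/- MS-275 Uqcrh led with 854 CPM per kilobase before Cox6b1 (643), and in Runx2+/- vehicle Uqcrh (339) led before Atp5b (310). Among the 83 members tested the lowest were Cox7a1 (3.45 CPM per kilobase) and Ndufb2 (7.22) in WT MS-275, and Ndufb2 (5.42) and Atp5s (5.46) in WT vehicle.

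**Figure D4:**
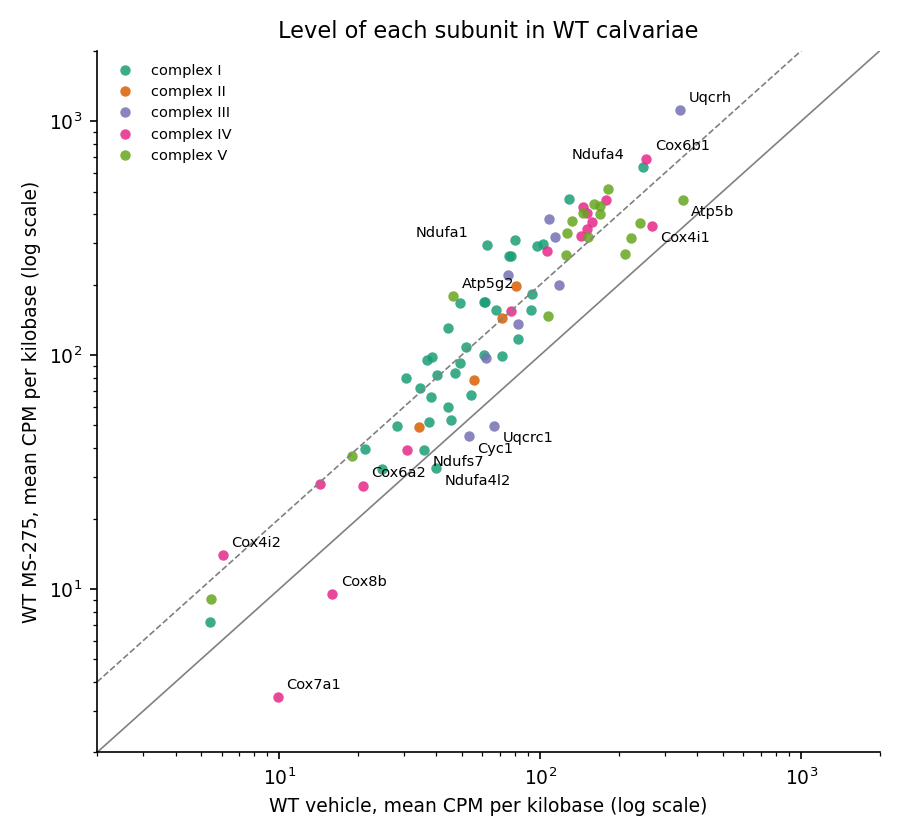
Mean level per kilobase of mRNA of each member tested in WT MS-275 (vertical) and WT vehicle (horizontal), both on log scales and over 3 libraries each; the solid line marks equal levels and the dashed line a level 2 times as high with MS-275. Most members lie between or above the lines, Uqcrh, at 1117 and 344 CPM per kilobase, is highest with MS-275 and second to Atp5b (352) with vehicle, and Cox7a1, Cox8b, Uqcrc1, Cyc1 and Ndufa4l2 lie below the solid line.

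In Runx2+/- calvariae the same comparison gave no call with all 12 libraries. Of the 83 members 0 rose and 0 fell by edgeR, as did 0% of all genes in each direction, while 51 members had an unadjusted p under 0.05. DESeq2 called 24 members higher (4.52% of all genes higher and 2.27% lower), and limma-voom called 0 (0% of all genes). The median log2 fold change of the members was 0.96, with quartiles of 0.58 and 1.31, against −0.04 over all genes tested, and 79 of 83 members had a value above 0. The groups did not overlap in 15 members with MS-275 higher and in 1, Uqcrc1, with MS-275 lower (6.33% of all genes lay higher and 8.56% lower in this way).

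That count changed when replicate 3 of Runx2+/- MS-275 was left out. Without it, 58 members rose and 1 fell (18.5% of 18216 genes called higher and 14.2% called lower), with a median of 1.26. The member that fell was Uqcrc1, at −0.73 (SE 0.22, edgeR adjusted p = 0.0317, with 0.0198 to 0.669 over 24 alternatives). By complex, 28 of 37 members of complex I, 3 of 4 of complex II, 6 of 9 of complex III, 9 of 16 of complex IV and 12 of 17 of complex V rose. Without the vehicle replicates 3 as well, 70 members rose and 1 fell (23.9% of 18065 genes called higher and 28.9% called lower), with a median of 1.41. Leaving out replicate 1 of Runx2+/- MS-275 instead, the members lay 0.50 above the median gene, in place of 0.99. Cox6a2 was the highest member without replicate 3, at 2.58 (SE 0.53).

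Genotype comparisons asked whether the chain differs in heterozygotes. None of the 83 members was called under either treatment, by edgeR, DESeq2 or limma-voom. By edgeR, 0% of all genes were called in both comparisons, and the shares by the other methods are not given here. In Runx2+/- MS-275 against WT MS-275 the median of the members was −0.27 and 3 members had an unadjusted p under 0.05; without the 3 libraries that stand apart the members' median minus that of all genes was −0.04, in place of −0.32. The smallest p-values were those of Uqcrc1 (−0.59, SE 0.22, adjusted p = 0.270) and Sdhc (−0.71, SE 0.28, adjusted p = 0.283), followed by Cox8b (1.37, SE 0.54, adjusted p = 0.285), named after its values were seen. Uqcrc1 was below WT MS-275 in all 3 Runx2+/- MS-275 libraries. In Runx2+/- vehicle against WT vehicle the median was −0.17, and 2 members had an unadjusted p under 0.05, namely Cyc1 (−0.47, SE 0.19) and Ndufs7 (−0.48, SE 0.21), both with an adjusted p of 1.00. Cyc1 had 64.4, 53.4 and 57.0 CPM in Runx2+/- vehicle and 60.2, 94.7 and 87.8 CPM in WT vehicle, and the groups overlapped.

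The interaction is the MS-275 difference in Runx2+/- minus that in WT. It was called for 0 of 83 members by edgeR (0% of all genes), DESeq2 and limma-voom. By edgeR, its unadjusted p was under 0.05 in 2 members. Its median over the members was −0.14. The smallest p-values were those of Cox8b (2.25, SE 0.76, adjusted p = 0.873) and Cox7a1 (2.64, SE 1.19, adjusted p = 0.873), the isoforms of muscle and brown fat described above.

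The mitochondrially encoded subunits, which join the members in complexes I, III, IV and V, were higher in the same libraries and by more. In WT all 12 that could be tested rose (median log2 fold change 2.84), and in Runx2+/- none passed with all libraries (median 2.67) and 12 of 12 without replicate 3 of Runx2+/- MS-275 (3.09). They took 23.8%, 15.9% and 9.37% of the counts in Runx2+/- MS-275 and 4.39%, 4.25% and 5.39% in Runx2+/- vehicle, 12.5%, 14.4% and 22.7% in WT MS-275 and 4.30%, 4.68% and 4.28% in WT vehicle. Replicate 3 of Runx2+/- MS-275, which lay with the vehicle libraries for most members, stood above every vehicle library here. Per count of the nuclear-encoded members, mitochondrially encoded subunits had 22.8, 17.0 and 11.3 counts in Runx2+/- MS-275 and 5.77, 6.00 and 5.93 in Runx2+/- vehicle, 12.8, 14.8 and 21.3 in WT MS-275 and 5.91, 5.38 and 4.17 in WT vehicle. The ratio averaged 17.0 ± 5.75 in Runx2+/- MS-275 and 5.90 ± 0.118 in Runx2+/- vehicle, and 16.3 ± 4.44 in WT MS-275 and 5.15 ± 0.892 in WT vehicle (SD, n = 3; two-sided exact permutation p = 0.1 for each drug comparison, the smallest possible).

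**Figure D5:**
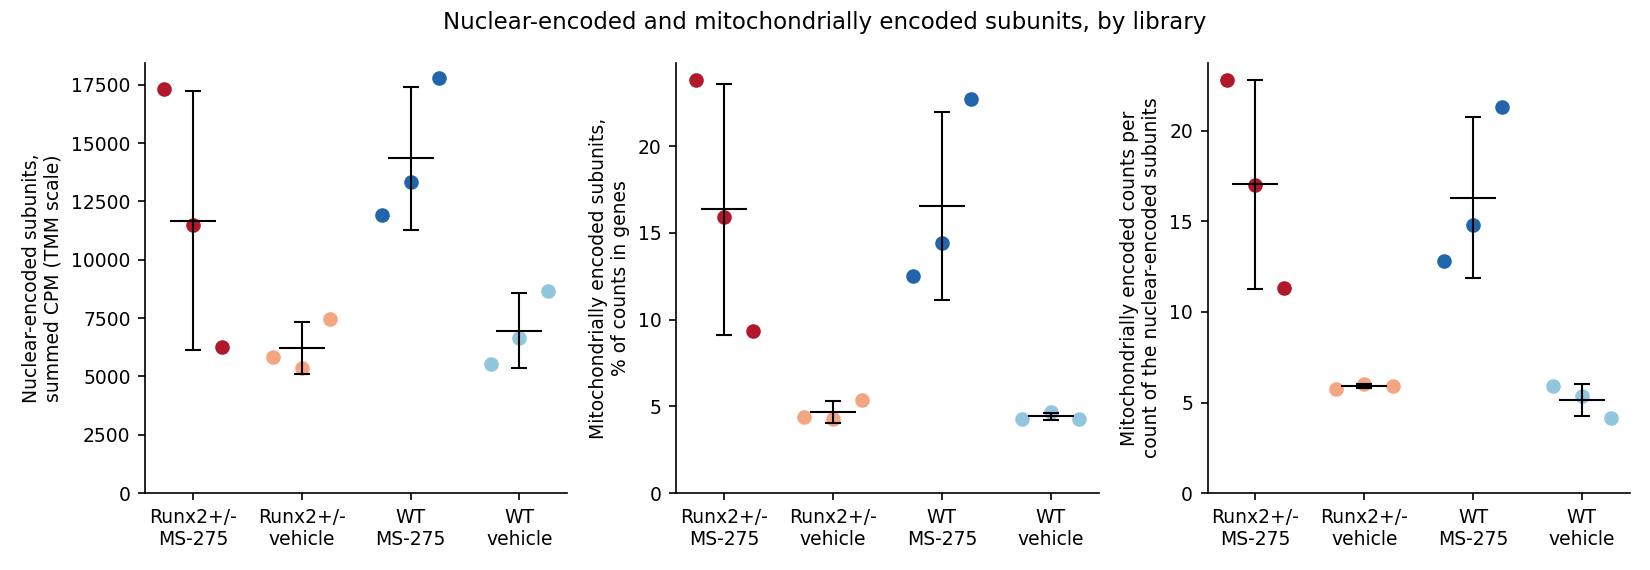
Summed CPM of the nuclear-encoded members, the percentage of counts from the mitochondrially encoded subunits, and the ratio of the 2 sets of counts, in each library with mean ± SD over 3 libraries per group. The ratio is 11.3 or more in every MS-275 library and 6.00 or less in every vehicle library.

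Other genes of the pathway were described in the same way, with no test against the members. Of all genes tested in WT, 9.67% were called higher and 9.33% lower. Of 47 assembly factors tested, which build the complexes but stay out of them, 6 (12.8%) rose in WT and 0 fell (median 0.39). They were Ndufaf1, Ndufaf2, Nubpl and Tmem126b for complex I, Sdhaf4 for complex II and Tmem70 for complex V. Sdhaf4 had the largest value of the 6, with 27.5 ± 7.98 CPM with MS-275 in WT and 8.88 ± 1.88 CPM with vehicle (SD, n = 3; 1.63, SE 0.46, edgeR adjusted p = 0.0439). Of 14 genes of cytochrome c and ubiquinone synthesis, 0 passed by edgeR, with 7 at an unadjusted p under 0.05, and their median was −0.14. Of 24 other proteins of the inner membrane and import, 2 (8.33%) rose and 0 fell (median 0.39). They were the adenine nucleotide carrier Slc25a5 (1.70, SE 0.50) and the cristae protein Chchd3 (1.32, SE 0.38).

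Of 19 regulators of mitochondrial biogenesis, 2 (10.5%) rose and 3 (15.8%) fell in WT, beside 9.67% of all genes called higher and 9.33% lower. Ppargc1a, the coactivator known to raise respiratory gene expression in muscle and brown fat, fell to 3.31 ± 0.499 CPM in WT MS-275, against 12.0 ± 6.96 CPM in WT vehicle (SD, n = 3; −1.85, SE 0.57, edgeR adjusted p = 0.0476). Twnk, the helicase that replicates mitochondrial DNA, fell by 0.66 on the log2 scale (SE 0.19, adjusted p = 0.0456), and the corepressor Nrip1 fell by 0.75 (SE 0.23, adjusted p = 0.0482). Tfb2m, a factor for transcription of mitochondrial DNA, rose by 0.89 (SE 0.24, adjusted p = 0.0434), and Gabpa, the DNA-binding subunit of GABP, rose by 0.57 (SE 0.17, adjusted p = 0.0473). Nrf1, the activator named for nuclear respiratory genes, had 30.1 ± 1.45 CPM with MS-275 in WT and 33.3 ± 3.03 CPM with vehicle (−0.15, SE 0.14, adjusted p = 0.409). None of the 19 passed in Runx2+/- with all libraries. For a cause that was not tested, the counts of these lists changed when replicate 3 of Runx2+/- MS-275 was left out. This library enters the fit of all comparisons. Without it, in WT, 17 assembly factors rose and 1 fell, 4 genes of cytochrome c and ubiquinone synthesis rose and 4 fell, 11 membrane and import proteins rose and 2 fell, and 5 regulators rose and 5 fell. In Runx2+/- the numbers were 15 and 1, 2 and 0, 12 and 2, and 2 and 5 in the same order. Without that library, 22.2% of all genes were called higher and 24.4% lower in WT. In Runx2+/- the shares were 18.5% and 14.2%.

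Promoters of the members were compared by the short motifs of factors known to control such genes. Promoter windows of 300 bases (250 before and 50 after the start, RefSeq, GRCm38.p6) were found for 68 of the 85 members, and motifs were searched on both strands. The NRF1 motif GCGCATGCG stood in the windows of 8 of 68 members (11.8%) and of 1.95% of all 27025 genes in the table, and with 1 open base (GCGCANGCG, which takes in the first form) in 29.4% and 7.03%. The GABP motif CCGGAAG stood in 23.5% of members and 9.93% of all genes, and the YY1 motif AAGATGGCG in 10.3% and 1.64%. The ERR motif TCAAGGTCA stood in 2.94% and 0.466%. The RUNX motif TGTGGT stood in 10.3% of members and 18.9% of all genes, TATAAA in 10.3% and 15.7%, CCAAT in 44.1% and 41.1%, and the E-box CACGTG in 8.82% and 8.09%. The 8 members with GCGCATGCG had a median log2 fold change of 0.99 in WT, against 1.10 in the 59 tested members without it. The median was 1.20 in 16 members with CCGGAAG and 1.06 in 51 without. It was 1.34 in 29 members with CCAAT and 0.994 in 38 without, and 11 and 10 of them were called higher. It was 0.649 in 7 members with TGTGGT and 1.14 in 60 without. The other motifs searched had medians of 0.824 to 1.12 with them and 1.06 to 1.18 without, and no difference was tested. These counts describe letters in these windows only.

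The windows of 4 members that hold GCGCATGCG are shown, in order of their p in WT and in the direction of transcription, with the motif in capitals (10 letters where both strands hold it). They lie at chr15:102670998-102671297 (Atp5g2, minus strand), chr9:44920693-44920992 (Atp5l, minus strand), chr5:115348909-115349208 (Cox6a1, minus strand) and chr17:56717512-56717811 (Ndufa11, plus strand). The motif begins 42 bases before the start in Atp5g2, 60 before it in Ndufa11, 162 in Cox6a1 and 241 in Atp5l. Of the 4, Atp5g2 was called higher in WT, and Atp5l (1.46, SE 0.47, edgeR adjusted p = 0.0506), Cox6a1 (1.18, SE 0.39, adjusted p = 0.0532) and Ndufa11 (0.91, SE 0.36, adjusted p = 0.0785) were not. Uqcrc1, whose log2 fold change was below 0 in both drug comparisons and was not called in either with all libraries, also holds the motif.
Atp5g2: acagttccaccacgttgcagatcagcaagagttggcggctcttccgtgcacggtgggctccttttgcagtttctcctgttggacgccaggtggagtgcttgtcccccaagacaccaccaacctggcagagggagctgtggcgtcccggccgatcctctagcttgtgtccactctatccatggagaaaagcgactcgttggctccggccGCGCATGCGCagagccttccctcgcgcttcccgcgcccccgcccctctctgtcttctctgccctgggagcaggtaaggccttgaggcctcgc
Atp5l: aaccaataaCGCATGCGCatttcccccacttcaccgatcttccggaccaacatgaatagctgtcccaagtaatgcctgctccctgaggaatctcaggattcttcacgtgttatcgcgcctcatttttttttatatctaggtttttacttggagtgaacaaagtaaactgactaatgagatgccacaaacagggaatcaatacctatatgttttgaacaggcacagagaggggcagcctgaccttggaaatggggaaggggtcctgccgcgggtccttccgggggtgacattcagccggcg
Cox6a1: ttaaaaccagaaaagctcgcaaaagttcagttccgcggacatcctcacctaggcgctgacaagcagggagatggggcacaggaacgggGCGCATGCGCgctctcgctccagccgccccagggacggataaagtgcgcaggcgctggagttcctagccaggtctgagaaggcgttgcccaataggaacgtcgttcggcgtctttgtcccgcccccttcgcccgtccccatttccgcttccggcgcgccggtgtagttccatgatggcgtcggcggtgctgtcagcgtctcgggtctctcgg
Ndufa11: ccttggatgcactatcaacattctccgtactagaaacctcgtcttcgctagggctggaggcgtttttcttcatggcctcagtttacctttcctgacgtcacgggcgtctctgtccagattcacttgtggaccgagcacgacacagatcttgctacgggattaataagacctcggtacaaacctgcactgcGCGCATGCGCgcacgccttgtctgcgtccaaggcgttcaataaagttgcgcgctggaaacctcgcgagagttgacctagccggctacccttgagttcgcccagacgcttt

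The members share features that could bear on counting. Their mRNAs were short, with a median length of 742 bases against 2682 over all genes tested, and ran from 37.0% to 63.3% GC. Across the 83 members the log2 fold change in WT correlated negatively with GC content (Spearman rho −0.28) and with mRNA length (−0.32), as it did across all genes tested (−0.245 over 17759 genes and −0.191 over 15859). These are correlations across genes of the same 6 libraries, and genes are not independent replicates. In 3 parts of the members by GC content, the median log2 fold change was 1.31 from 37.0% to 48.7% GC (10 of 28 called higher), 1.13 from 48.8% to 53.6% (8 of 28) and 0.76 from 53.7% to 63.3% (6 of 27). With an offset for GC content 18 members were called higher in WT (5.63% of all genes), and with one for exonic length 27 (10.9% of all genes). Exons of 29 of the 85 members overlap exons of another gene in GENCODE M21.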

How the data were processed

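RNA sequencing of 12 calvarial libraries was analysed. Per the labels' protocols, RNA was extracted with Trizol and libraries came from a stranded total RNA kit. The authors deposited whole-number read counts per Ensembl gene without normalization, 1 file per library. Per the submitters' processing notes, Trimmomatic, Bowtie2, SAMtools and HTSeq were used, without versions, and the build named there, GRCh38.p7, is a human build, while the identifiers are those of mouse. Whether counting used strand is not stated there, so counts of overlapping genes are uncertain. Symbols and positions came from GENCODE M21 (GRCm38) by identifier, with a symbol for 37693 of them and none for 1486. The 5 summary entries of each file that name no gene stayed out. Reads assigned to no gene were counted as a share of all reads except those aligned more than once. The shares were 6.36%, 8.65% and 22.2% in Runx2+/- MS-275 and 14.1% to 16.8% in Runx2+/- vehicle. In WT they were 5.21% to 6.28% with MS-275 and 10.5% to 15.2% with vehicle. The part of this difference in the results was not tested.

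filterByExpr kept 17967 genes. TMM factors were 0.603, 0.814 and 1.33 in Runx2+/- MS-275 and 1.22 to 1.32 in Runx2+/- vehicle. In WT the factors were 0.598 to 0.82 with MS-275 and 1.18 to 1.32 with vehicle. edgeR 4.0.16 (R 4.3.3) gave the quasi-likelihood F test (robust, 8 residual degrees of freedom, common biological coefficient of variation 0.442), fitted to all 12 libraries with 4 group means and no covariate, with p-values adjusted by Benjamini-Hochberg within each comparison, with a threshold of 0.05, two-sided. The SE is the log2 fold change divided by the square root of F. Log2 CPM used a prior count of 2. With counts of 9 or more in every library for each member tested, precision is set mainly by the spread between libraries. Single values per library were compared by exact permutation tests. Levels per kilobase divide CPM by the median length of the basic protein-coding transcripts. Exact tests used scipy 1.17.1 and figures matplotlib 3.10.9, in Python 3.11.15. The fit was tested on simulated data.

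Named members were the catalytic core subunits (except 1, counted with the others but not reported here), the tissue isoform pairs, the 2 largest and 2 smallest log2 fold changes of each complex in WT, members called lower in a drug comparison, and, for genotype and interaction, the 2 with the smallest p; Atp5l and Ndufa11 were named by the rule for promoters and Atp5h, Atp5s and Ndufb2 by their order per kilobase. The members, lists and tests were chosen with earlier results of these data known. Alternatives were DESeq2 1.42.0 size factors, library size alone, TMM without mitochondrially encoded genes, an offset for exonic length, 2 other filters, DESeq2, limma-voom (limma 3.58.1), fits of the 2 groups compared, a replicate block, and each library left out. A GC offset and leaving out the 3 libraries that stand apart were added after seeing the data. Deviations of same-numbered Runx2+/- vehicle and WT vehicle libraries correlated at 0.22, 0.752 and 0.812, with no shared litter or day stated. Replicate 1 of Runx2+/- vehicle correlated at 0.272 with replicate 2 of WT vehicle, and replicate 2 at 0.679 with replicate 1. Replicate numbers were therefore not shown to pair these libraries. In the other comparisons at least 1 same-numbered pair correlated negatively.

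Cell type lists were osteoblast, osteoclast, chondrocyte, skeletal muscle, cardiac and slow muscle, epidermis, adipocyte, neuron, erythroid, macrophage, endothelial and lens. In WT MS-275 against WT vehicle the numbers of genes called higher and lower were 7 and 0, 3 and 0, 1 and 0, 0 and 3, 0 and 1, 0 and 9, 0 and 2, 0 and 2, 0 and 1, 2 and 0, 1 and 0, and 0 and 1 in that order. Of all genes tested, 9.67% were called higher and 9.33% lower.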

Additional observations from a re-analysis of the deposited data

How the results depend on the processing

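The members lay above the median gene in both drug comparisons under every alternative run: by 0.50 to 1.57 on the log2 scale in Runx2+/- (0.99 as reported) and by 0.97 to 1.39 in WT (1.18 as reported). The lowest Runx2+/- value came without Runx2+/- MS-275 replicate 1 and the highest without the 3 libraries that stand apart. The numbers of members called were less stable. In WT, 24 called higher became 12 (and 3 lower; 2.93% and 39.0% of all genes) with library size alone, 0 when every gene with a count was tested, 0 with limma-voom, 0 with the replicate block, 49 (18.5%) with DESeq2, 54 (20.9%) with only the 2 groups compared, 71 (28.5%) without the 3 libraries, and 0 to 59 with single libraries left out. It was 59 (22.2% of all genes called higher) without Runx2+/- MS-275 replicate 3, 48 (15.4%) without replicate 1 of that group, 12 (5.20%) without Runx2+/- vehicle replicate 3 and 47 (13.9%) when WT vehicle replicate 3 was left out. In Runx2+/-, 0 called higher and 0 lower became 24 and 0 (4.52% and 2.27% of all genes) with DESeq2. They became 70 and 1 (23.9% and 28.9%) without the 3 libraries. With single libraries left out, 0 to 58 were higher (0% to 18.5% of all genes) and 0 to 1 lower (0% to 14.2%). The cause was not tested. In the genotype comparisons and the interaction, 0 members were called under every alternative. The fit with the replicate block changed no other count of calls, and between the vehicle groups 0 members were called with and without the block. The 13 named members called higher in WT kept their sign under every alternative.

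Log2 fold changes that turned sign with library size alone were, in Runx2+/-, Atp5a1 (−0.21), Atp5b (−0.20), Atp5g3 (−0.45), Cox4i1 (−0.30), Cox4i2 (−0.0525), Cox6b2 (−0.13), Ndufs3 (−0.30), Ndufs7 (−0.11), Sdha (−0.0748) and Uqcrfs1 (−0.10). In WT they were Atp5a1 (−0.22), Atp5b (−0.44), Atp5g3 (−0.44), Cox4i1 (−0.37), Cox6a2 (−0.32), Ndufs1 (−0.0457), Ndufs3 (−0.52), Ndufs7 (−0.66), Ndufv1 (−0.39), Sdha (−0.34), Sdhc (−0.29) and Uqcrfs1 (−0.19). With the GC offset Cyc1 became 0.32 in Runx2+/- and 0.28 in WT, and Ndufa4l2 became 0.18 in Runx2+/- and 0.20 in WT. With the length offset Ndufs7 became −0.049 in WT. Without the 3 libraries Ndufa4l2 became 0.19 in Runx2+/- and 0.34 in WT, and Sdhc became 0.37 in Runx2+/-, where the replicate block gave 0.0044. With single libraries left out, the values ran in Runx2+/- from −0.098 to 0.38 for Atp5g3, −0.99 to 0.062 for Ndufa4l2 and −0.22 to 0.22 for Sdhc. In WT they ran from −0.37 to 0.69 for Cox6a2, −0.55 to 0.34 for Ndufa4l2 and −0.035 to 0.36 for Ndufs7.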

Other observations

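Markers of blood and of resorbing cells also varied between libraries. The 9 erythroid markers summed to 23186, 12795 and 2312 CPM in Runx2+/- MS-275 and 3712 to 8791 CPM in Runx2+/- vehicle, 5213, 12312 and 27663 CPM in WT MS-275 and 2534 to 6135 CPM in WT vehicle. The 2 libraries with the highest erythroid sums, Runx2+/- MS-275 replicate 1 and WT MS-275 replicate 3, were also those with the highest summed level of the members (17313 and 17797 CPM) and the highest share of mitochondrially encoded counts (23.8% and 22.7%). They also had the lowest TMM factors (0.603 and 0.598), which raise every CPM value there. Slc4a1, Klf1 and Epb42 of the erythroid list were highest in Runx2+/- vehicle libraries, and its other genes in 1 of these 2 libraries. Slc4a1 had 4.23 to 10.9 CPM with MS-275 and 12.2 to 48.0 CPM with vehicle. The 10 osteoclast markers, none of them at 0 in any library, summed to 1010, 538 and 91.97 CPM in Runx2+/- MS-275 and 106 to 569 CPM in Runx2+/- vehicle, 2090 to 2361 CPM in WT MS-275 and 251 to 537 CPM in WT vehicle. The part of these cells in the levels of the members was not tested.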
